A study of Homo sapiens with 4 samples.

Results

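The 10 genes described here encode intermediate filament proteins: vimentin (VIM), nestin (NES) and synemin (SYNM), the keratins KRT7, KRT8, KRT18, KRT19 and KRT80, and the nuclear lamins LMNA and LMNB1. They were chosen by name, with earlier results of these data known. All 10 had a probe assigned to that gene alone, among 18417 genes measured. KRT18 had several such probes, of which the one with the greatest mean level was taken. RNA came from HuH7, a human hepatocellular carcinoma line. The MKL1/2 shRNA group (n = 2 arrays) carried short hairpin RNA (shRNA) against MKL1 and MKL2 and the control shRNA group (n = 2 arrays) a negative control hairpin. Both groups received their hairpins by lentivirus from the pLKO.1 vector, were selected with puromycin for 7 days, and grew in DMEM with 10% serum. MKL1 and MKL2, now named MRTFA and MRTFB, are co-activators that leave monomeric actin and switch on genes through serum response factor (SRF), so the comparison asks which transcripts depend on them. The sample titles call the replicates biological. Whether each replicate had its own infection or clone is not stated, so the p-values measure only the spread between these samples.

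Intermediate filaments are rope-like polymers that give cells and nuclei mechanical strength. Vimentin forms filaments by itself, whereas nestin and synemin are built into filaments made by vimentin or related proteins. Keratins assemble only as pairs of an acidic and a basic chain: KRT8 with KRT18 is the pair of hepatocytes, and KRT7 and KRT19 are known from bile duct cells and from liver tumours with progenitor features. Lamins line the inside of the nuclear envelope.

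No intermediate filament gene passed the test for a difference between MKL1/2 shRNA and control cells. In limma, a linear model fitted over all genes with Benjamini-Hochberg adjustment, 0 of 10 had an adjusted p under 0.05, and 3 of 10 (NES, VIM and KRT18) had an unadjusted p under 0.05, all 3 with lower values in the MKL1/2 shRNA cells. Over all genes tested, 0.174% passed the adjusted threshold and 14.3% the unadjusted one, made up of 8.04% lower and 6.25% higher. NES had the difference of greatest size among the 10, at 0.605 of its control level. The MKL1/2 shRNA arrays lay below both control arrays for 5 of 10 genes (NES, VIM, KRT18, LMNB1 and LMNA) and above both for 0 of 10, beside 23% and 22.5% of all genes. The log2 difference was below 0 for 8 of 10 genes, beside 48% of all genes. The median log2 difference, MKL1/2 shRNA minus control, was -0.10 for the 10 genes and 0.0082 over all genes tested. It was -0.17 for MKL1/2 shRNA replicate 1 alone and -0.14 for replicate 2 alone, each against the control mean. These counts and medians describe genes chosen with earlier results known, and are no test of the 10 as a set.

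**Figure D1:**
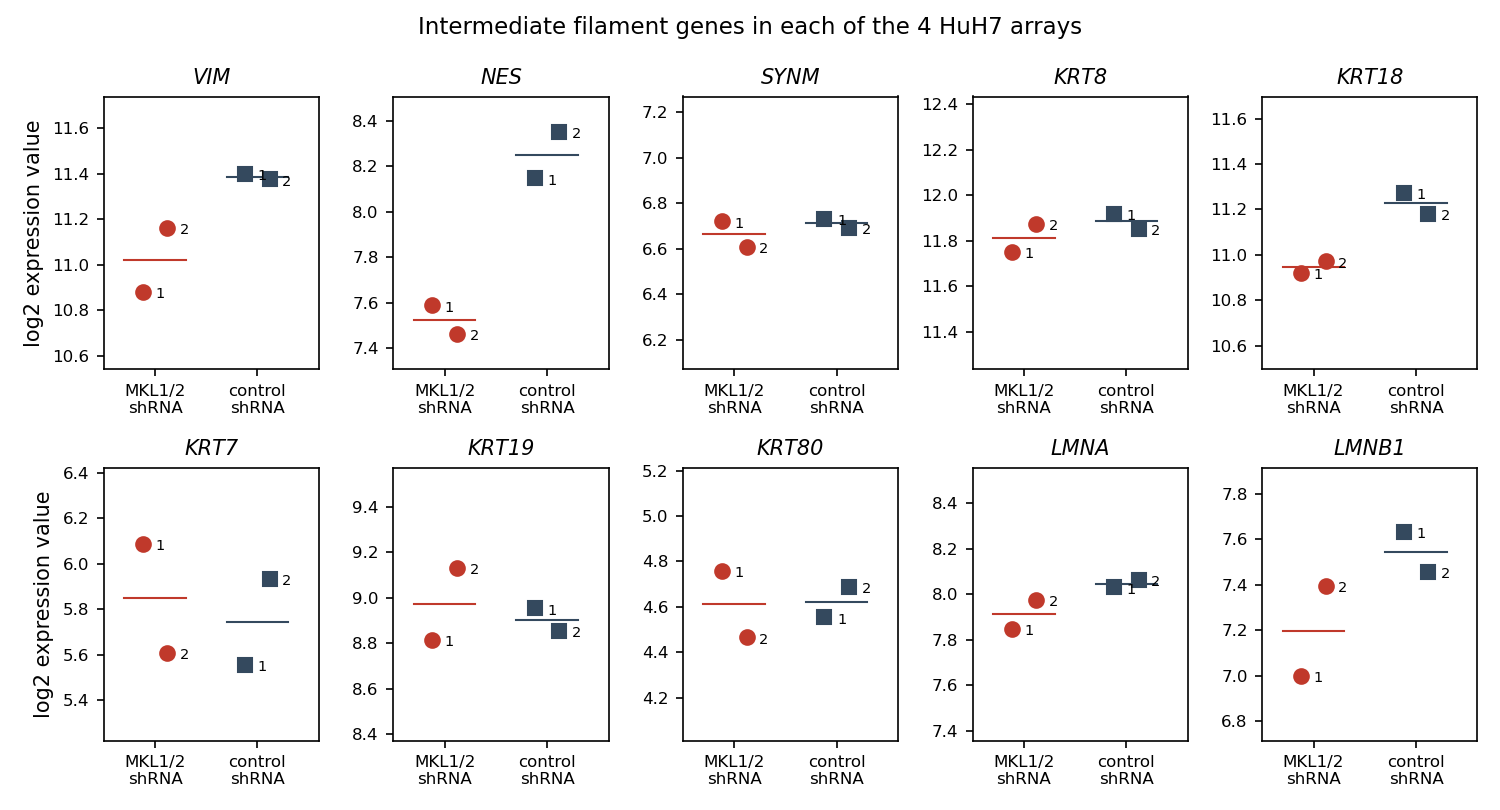
Log2 expression value of each gene (y axis, spanning the same range of log2 units in every panel) in the MKL1/2 shRNA arrays (red circles) and the control shRNA arrays (dark squares), with the replicate number beside each point and a line at the mean of each group (n = 2 each). NES, VIM, KRT18, LMNB1 and LMNA have both MKL1/2 shRNA points below both control points, and the groups overlap for the other 5 genes.

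The hairpin targets and SRF were read first as a check of the labels. The 1 probe that lists MRTFA, together with a second gene, read 6.81 and 6.91 in MKL1/2 shRNA cells, against 7.77 and 7.80 in control cells (limma adjusted p = 0.0404 when fitted beside all genes). Its log2 difference was -0.93, and it was -0.94 without control replicate 1 and -0.91 without control replicate 2, where no gene passed (limma adjusted p = 0.732 and 0.638 for MRTFA). The MRTFA difference was -0.88 without MKL1/2 shRNA replicate 1 and -0.98 without replicate 2, each of which leaves 1 array in that group. MRTFB read 6.84 and 7.11 in MKL1/2 shRNA cells, against 7.20 and 7.22 in control cells, and did not pass (limma adjusted p = 0.448). SRF read 9.37 and 9.52 in MKL1/2 shRNA cells, against 9.80 and 9.97 in control cells (limma adjusted p = 0.188). The cells carried hepatocyte transcripts on all 4 arrays. APOA2, ALB, AFP and APOB, genes of plasma proteins made by hepatocytes or their fetal precursors, read between 11.58 and 12.49 in MKL1/2 shRNA cells, against 11.79 to 12.58 in control cells. Of 11 measured hepatocyte markers, 0 passed in limma. At an unadjusted p under 0.05, 1 was lower and 0 higher, beside 8.04% and 6.25% of all genes. Their summed level on the log2 scale was 15.08 and 15.12 in MKL1/2 shRNA cells, against 15.17 and 15.14 in control cells.

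NES encodes nestin, a large filament protein known from neural and other progenitor cells and from regenerating endothelium and muscle. It read 7.59 and 7.46 in MKL1/2 shRNA cells, against 8.15 and 8.35 in control cells. Both MKL1/2 shRNA arrays were low, and the gap between the groups was wider than the gap between the arrays of either group. The log2 difference was -0.72 (SE 0.115), a factor of 0.605 with a 95% interval of 0.499 to 0.735 that is not adjusted for the number of genes. Over all genes NES missed the threshold, with a limma adjusted p of 0.0962 and a range of 0.0523 to 0.898 over the alternative settings.

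VIM encodes vimentin, the main filament protein of mesenchymal cells, which carcinoma lines in culture often make as well. It read 10.88 and 11.16 in MKL1/2 shRNA cells, against 11.40 and 11.38 in control cells. Replicate 1 of the MKL1/2 shRNA cells was the low array, 0.51 below the control mean, and replicate 2 lay 0.22 below it, while the control arrays differed by 0.026. The factor was 0.776, with a 95% interval of 0.631 to 0.954 (limma adjusted p = 0.27, and 0.0534 to 1 over the alternatives). SYNM, which encodes synemin, a filament protein that joins vimentin or desmin networks to adhesion and muscle proteins, read 6.72 and 6.61 in MKL1/2 shRNA cells, against 6.73 and 6.69 in control cells. The SYNM groups overlapped, and its 95% interval ran from 0.82 to 1.14 times control. Of vimentin's partner genes, NES thus lay at -0.72 and SYNM at -0.047 on the log2 scale, and the contrast between them was not tested.

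The promoters of NES and VIM are shown because these genes had the smallest p-values of the 10 and the hairpins target co-activators of SRF, a factor that binds a motif called the CArG box. The windows are from RefSeq (build GRCh38.p14), 250 bases before to 50 bases after an annotated start, and run 5′ to 3′ on the gene's strand. Capitals mark the GC box GGGCGG or its complement, a motif of Sp1-family factors. The NES window is chr1:156677358-156677657 on the minus strand and the VIM window chr10:17227991-17228290 on the plus strand.
NES promoter: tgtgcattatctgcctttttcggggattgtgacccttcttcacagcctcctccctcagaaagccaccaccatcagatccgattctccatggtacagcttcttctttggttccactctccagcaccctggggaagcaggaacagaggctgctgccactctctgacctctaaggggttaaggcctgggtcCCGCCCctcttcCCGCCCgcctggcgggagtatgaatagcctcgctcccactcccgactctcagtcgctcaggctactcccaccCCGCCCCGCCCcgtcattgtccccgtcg
VIM promoter: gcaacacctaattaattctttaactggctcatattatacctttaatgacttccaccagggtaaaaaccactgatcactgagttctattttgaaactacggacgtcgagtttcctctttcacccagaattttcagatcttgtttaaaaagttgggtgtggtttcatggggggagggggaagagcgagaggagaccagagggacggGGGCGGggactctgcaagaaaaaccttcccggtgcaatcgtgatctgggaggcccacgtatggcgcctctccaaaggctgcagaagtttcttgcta
The NES window held 4 matches to the GC box, 2 of which overlap by a base, and the VIM window held 1. Windows were found for 6 of the 10 genes (9 windows in all), and 7 of the 9 windows, from NES, VIM, SYNM, LMNA and LMNB1, had a GC box, as did 45.0% of 35116 windows of all genes. A CArG box was found in 0 of the 9 windows and in 1.29% of all windows, on either strand. The sequence TATAAA was found in 0 of 9 and in 11.5% of all, the AP-1 motif TGANTCA in 0 of 9 and in 7.71%, and the TEAD motif GGAATG in 1 of 9 (KRT8) and in 14.0%. These counts describe the letters in these windows alone.

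KRT8 and KRT18, the keratin pair of hepatocytes, differed in their values. KRT8, the basic chain, read 11.75 and 11.87 in MKL1/2 shRNA cells, against 11.92 and 11.85 in control cells. The KRT8 groups overlapped, with a factor of 0.951 and a 95% interval of 0.803 to 1.13 (limma adjusted p = 0.806). KRT18, the acidic chain, read 10.92 and 10.97 in MKL1/2 shRNA cells, against 11.27 and 11.18 in control cells. Both MKL1/2 shRNA arrays were low for KRT18, and the factor was 0.824 with a 95% interval of 0.70 to 0.969 (SE of the log2 difference 0.0966, limma adjusted p = 0.28, and 0.149 to 1 over the alternatives).

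KRT18 was read by 2 more probes. The second single-gene probe read 9.97 and 10.22 in MKL1/2 shRNA cells, against 10.56 and 10.55 in control cells. A probe that also lists MIR622 read 10.65 and 10.92 in MKL1/2 shRNA cells, against 11.24 and 11.17 in control cells. Both probes had lower values in both MKL1/2 shRNA arrays, with log2 differences of -0.46 and -0.42, beside -0.28 for the probe used, and none of the 3 passed when every probe was tested on its own (limma adjusted p from 0.384 to 0.443). KRT8 and KRT18 have many processed pseudogenes, and these 3 probes list the same KRT18 transcripts, so they are not independent readings and may share signal from such copies.

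Within each array, the log2 ratio of KRT18 to KRT8 averaged -0.87 ± 0.053 in MKL1/2 shRNA cells and -0.66 ± 0.017 in control cells (SD, n = 2 each). The arrays were at -0.83 and -0.90 in MKL1/2 shRNA cells, against -0.65 and -0.67 in control cells, so the groups did not overlap. The absolute ratio depends on the probes, and only its difference of -0.21 can be read. With the other KRT18 probes the difference was -0.39 and -0.35. An exact two-sided permutation test gave p = 0.333 for each, the smallest value that this test can give for 2 arrays against 2. Fitted in limma as a row beside all genes, the ratio did not pass with the probe used (SE 0.0944, limma adjusted p = 0.39) or with the other probes (limma adjusted p = 0.194 and 0.218). The ratio was examined after the values of both genes were seen.

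**Figure D2:**
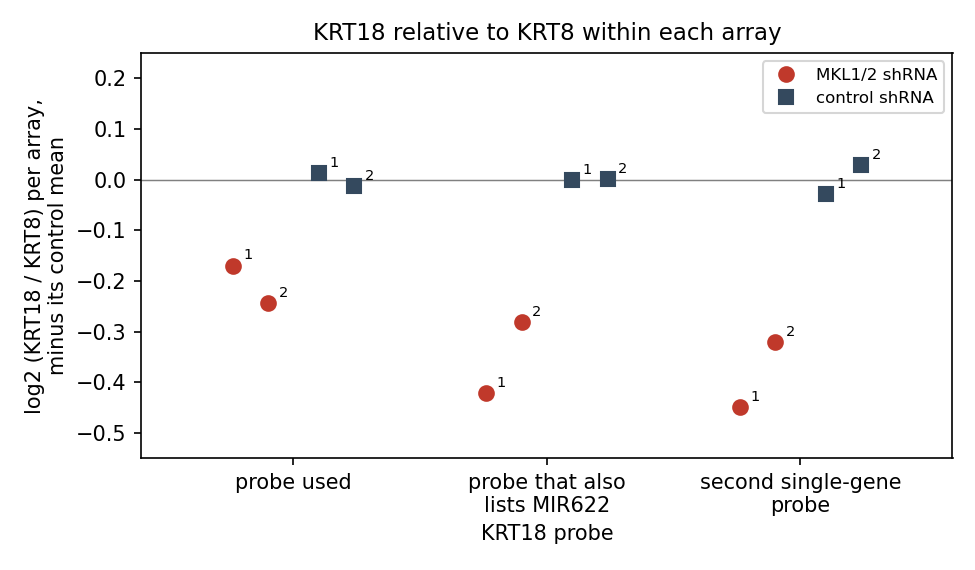
Log2 ratio of KRT18 to KRT8 in each array minus the mean ratio of the control arrays (y axis), for each of the 3 probes that list KRT18 (x axis), in MKL1/2 shRNA arrays (red circles) and control shRNA arrays (dark squares), with replicate numbers. The MKL1/2 shRNA points lie between -0.45 and -0.17, and the control points between -0.029 and 0.029.

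KRT7 and KRT19, keratins of bile duct cells, had overlapping groups. KRT19 read 8.81 and 9.13 in MKL1/2 shRNA cells, against 8.95 and 8.85 in control cells. The MKL1/2 shRNA arrays of KRT19 enclosed the control arrays, with a factor of 1.05 and a 95% interval of 0.839 to 1.31 (limma adjusted p = 0.872). KRT7 read 6.09 and 5.61 in MKL1/2 shRNA cells, against 5.56 and 5.93 in control cells. For KRT7 a high and a low array occurred in each group, and with a 95% interval of 0.77 to 1.5 times control it was the least precisely measured of the 10 genes.

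Other markers of bile duct and liver progenitor cells are set beside these keratins. Of 9 measured markers, 0 passed in limma. At an unadjusted p under 0.05, 1 was lower and 1 higher, beside 8.04% and 6.25% of all genes. Their summed level on the log2 scale was 11.91 and 12.28 in MKL1/2 shRNA cells, against 12.20 and 12.16 in control cells. Among the 4 with the highest mean, PROM1, a membrane protein of progenitor cells, read 8.75 and 9.93 in MKL1/2 shRNA cells, against 10.07 and 9.98 in control cells, so MKL1/2 shRNA replicate 1 stood apart. CD24, SOX9 and EPCAM had overlapping groups. SPP1 read 6.42 and 7.73 in MKL1/2 shRNA cells, against 8.08 and 8.06 in control cells. With all 4 arrays the log2 difference was -0.68 (SE 0.352) for PROM1 and -0.999 (SE 0.385) for SPP1. Neither passed (limma adjusted p = 0.442 and 0.322). Without MKL1/2 shRNA replicate 2, which leaves 1 array in that group, the differences were -1.27 for PROM1 and -1.65 for SPP1. The part of these marker transcripts in the keratin values was not tested. In bulk RNA of the HuH7 line, fewer cells that make a transcript and less RNA per cell cannot be told apart.

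KRT80, a basic keratin of differentiated epithelia, read 4.76 and 4.47 in MKL1/2 shRNA cells, against 4.55 and 4.69 in control cells. The groups overlapped and the factor was 0.994, with a 95% interval of 0.798 to 1.24. KRT80 was the 1 gene of the 10 among the dimmest 40% of genes, and whether its values lie above background is not known.

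The lamin genes had lower values in both MKL1/2 shRNA arrays without passing the test. LMNB1 encodes lamin B1, a permanent component of the lamina whose loss is used as a marker of senescent cells. It read 7.00 and 7.40 in MKL1/2 shRNA cells, against 7.63 and 7.46 in control cells. Replicate 1 of the MKL1/2 shRNA cells was the low array, at 0.55 below the control mean, and replicate 2 lay 0.15 below that mean. The LMNB1 factor was 0.786, with a 95% interval of 0.605 to 1.02 (limma adjusted p = 0.379, and 0.0674 to 1 over the alternatives). LMNA encodes lamins A and C, whose amount is known to scale with tissue stiffness. It read 7.85 and 7.98 in MKL1/2 shRNA cells, against 8.03 and 8.06 in control cells. The LMNA factor was 0.911, with a 95% interval of 0.771 to 1.08 (limma adjusted p = 0.602).

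Agreement between replicates differed among the 10 genes. The group difference was wider than the gap within either group for 4 of 10 genes (NES, VIM, KRT18 and LMNA), beside 32.5% of all genes. For 8 of 10 genes the MKL1/2 shRNA arrays lay farther apart than the control arrays, beside 63.6% of all genes. The gap between the MKL1/2 shRNA arrays was narrowest for KRT18, at 0.051, and widest for KRT7, at 0.48. Replicate 2 was the lower MKL1/2 shRNA array for NES, SYNM, KRT7 and KRT80, and replicate 1 for VIM, LMNB1, LMNA, KRT8, KRT18 and KRT19.

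**Figure D3:**
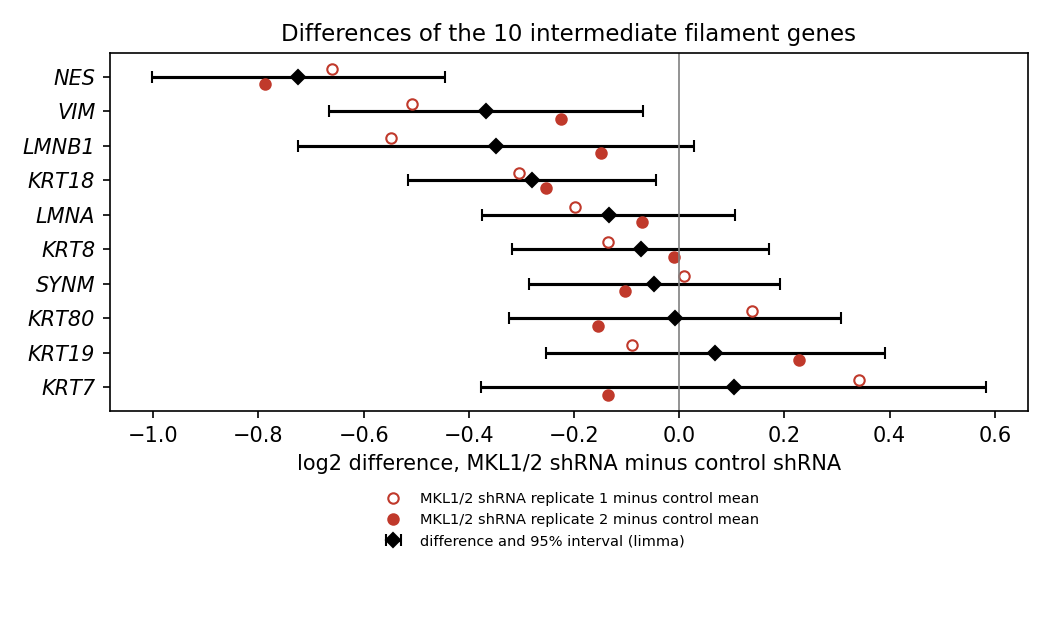
Log2 difference of each gene, MKL1/2 shRNA minus control shRNA (x axis), as limma's estimate with its 95% interval (black diamonds and bars, not adjusted for the number of genes), with MKL1/2 shRNA replicate 1 (open circles) and replicate 2 (filled circles) each set against the control mean. The intervals of NES, VIM and KRT18 lie below 0, and those of the other 7 genes include 0.

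The remaining genes of the family were centred near 0, but most of them were dim. Of 63 further keratin, neurofilament, lens and other filament genes, 56 were measured and 0 passed in limma. At an unadjusted p under 0.05, 2 were lower and 1 higher, beside 8.04% and 6.25% of all genes. Without the dimmest 40% of genes, 15 of the 56 were left, and whether the others lie above background is not known. The median log2 difference of the 56 genes was 0.011. The MKL1/2 shRNA arrays lay below both control arrays for 10 of the 56 and above both for 4. Over all genes these shares were 23% and 22.5%. The smallest p was that of KRT74, a keratin of the hair follicle's inner root sheath, which read 5.23 and 5.25 in MKL1/2 shRNA cells, against 4.72 and 4.64 in control cells (log2 difference 0.56, SE 0.0948, limma adjusted p = 0.107). KRT222, an unusual keratin-like gene, lay at -0.55 (SE 0.171), and the hair keratins KRT84 and KRT33B at -0.26 (SE 0.0933) and -0.29 (SE 0.122). KRT74, KRT222 and KRT84 were among the dimmest 40% of genes, and whether their values lie above background is not known. Lamin B2, encoded by LMNB2, read 8.08 and 8.18 in MKL1/2 shRNA cells, against 8.36 and 8.33 in control cells, and was named after its values were seen. Its log2 difference was -0.22 (SE 0.0966, limma adjusted p = 0.374).

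Linker and desmosome genes, whose products anchor filaments at junctions and join them to other parts of the cell, did not pass over all genes either. Of 22 measured, 0 passed in limma. At an unadjusted p under 0.05, 6 were lower and 0 higher, beside 8.04% and 6.25% of all genes. The MKL1/2 shRNA arrays lay below both control arrays for 10 of 22 genes and above both for 4. Over all genes these shares were 23% and 22.5%. The median log2 difference of the 22 genes was -0.079. DSC2, a desmosomal cadherin, read 7.68 and 7.84 in MKL1/2 shRNA cells, against 8.38 and 8.24 in control cells (log2 difference -0.55, SE 0.11, limma adjusted p = 0.134). DSG3, a desmosomal cadherin best known from stratified epithelia, read 6.51 and 6.69 in MKL1/2 shRNA cells, against 7.09 and 7.17 in control cells (log2 difference -0.53, SE 0.108, limma adjusted p = 0.136). DSG2, the desmosomal cadherin of simple epithelia, lay at -0.36 (SE 0.0989), and DST, which encodes the plakin linker dystonin, at -0.33 (SE 0.0952).

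Genes of proteins that hold or process the lamina did not pass over all genes either. Of 24 lamina partner genes, 23 were measured and 0 passed in limma. At an unadjusted p under 0.05, 3 were lower and 0 higher, beside 8.04% and 6.25% of all genes. The MKL1/2 shRNA arrays lay below both control arrays for 11 of 23 and above both for 5. Over all genes these shares were 23% and 22.5%. The median log2 difference of the 23 genes was -0.058. TMEM43, an inner nuclear membrane protein, read 9.25 and 9.16 in MKL1/2 shRNA cells, against 9.56 and 9.62 in control cells (log2 difference -0.38, SE 0.0968, limma adjusted p = 0.189). LEMD3, which encodes the inner membrane protein MAN1, lay at -0.34 (SE 0.128), and TOR1A, which encodes torsin A of the nuclear envelope lumen, at -0.26 (SE 0.107). MLIP, a partner of lamin A/C in muscle, went the other way in value, at 0.23 (SE 0.101).

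**Figure D4:**
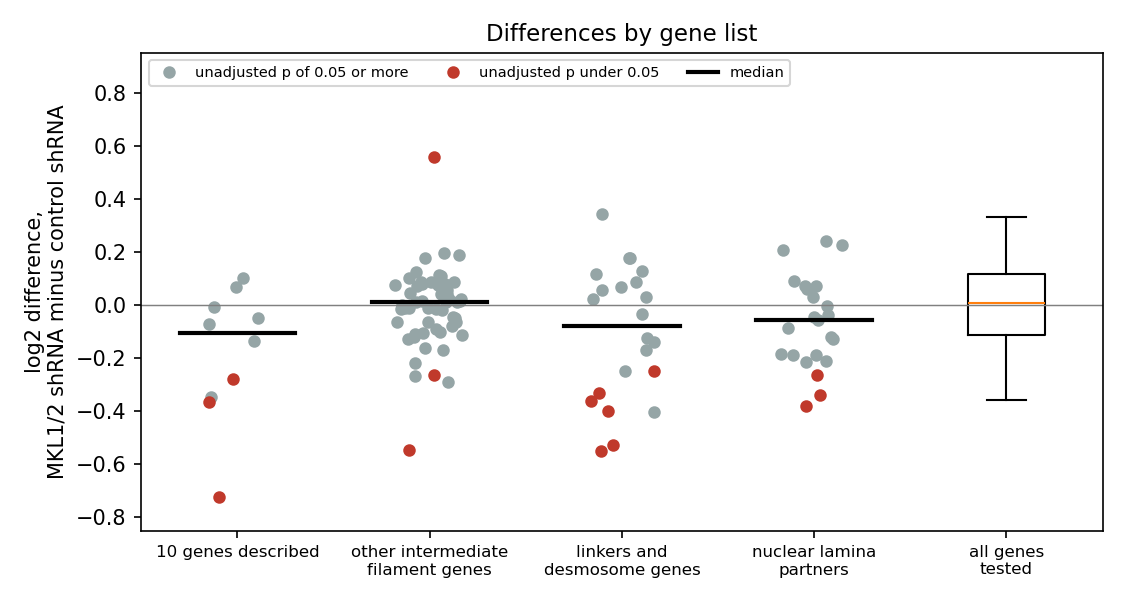
Log2 difference, MKL1/2 shRNA minus control shRNA (y axis), of each measured gene (points) in the 10 genes described and the 3 related gene lists, with red for an unadjusted p under 0.05 and a line at each median. The box for all 18417 genes tested shows the quartiles, from -0.11 to 0.12, and its whiskers the 5th and 95th percentiles, at -0.36 and 0.33.

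Markers of other cell types were measured because vimentin and nestin are also made by fibroblasts and stellate cells. Of 11 fibroblast and stellate cell markers, 0 passed in limma. At an unadjusted p under 0.05, 1 was lower and 0 higher, beside 8.04% and 6.25% of all genes. Their summed level on the log2 scale was 9.11 and 9.78 in MKL1/2 shRNA cells, against 9.66 and 9.65 in control cells. Among the 4 with the highest mean, COL1A2 read 6.32 and 6.80 in MKL1/2 shRNA cells, against 7.68 and 7.56 in control cells, and the matrix gene LUM 7.13 and 8.60 in MKL1/2 shRNA cells, against 8.05 and 8.01 in control cells. COL1A1 and PDGFRB had overlapping groups. Leaving out an MKL1/2 shRNA array leaves 1 array in that group. The log2 difference of COL1A2 was -0.82 without replicate 1 and -1.30 without replicate 2. That of LUM was -0.90 without replicate 2, whose LUM value of 8.60 lay above both control arrays. The part of these transcripts in the VIM and NES values was not tested. Of 5 measured leukocyte markers, 0 passed in limma. At an unadjusted p under 0.05, 0 were lower and 1 higher, beside 8.04% and 6.25% of all genes. Their summed level was 12.46 and 12.16 in MKL1/2 shRNA cells, against 12.23 and 12.30 in control cells, of which LYZ, a lysozyme gene, alone read 12.25 and 12.02 in MKL1/2 shRNA cells, against 12.07 and 12.13 in control cells. CD68 had overlapping groups, while CD14, at 5.33 and 5.24 in MKL1/2 shRNA cells against 5.18 and 5.19 in control cells, and CD3E, at 4.61 and 4.64 in MKL1/2 shRNA cells against 4.45 and 4.51 in control cells, did not overlap. No marker was listed at 0 on any array, since array values carry background.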

How the data were processed

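Total RNA of 4 HuH7 samples was labelled with biotin and hybridised to 1-colour whole-transcript arrays, 1 per sample. The titles gave each group and replicate number. The deposited table holds log2 expression values of 33297 probes. Partek is the software in the submitters' processing notes. How background was corrected and probes were normalized or summarized is not given in the sources used here. Values of 1.03 to 13.65 were taken to be log2, array medians ran from 5.68 to 5.73, and no detection call was available. Probes were named from the platform annotation (19460 with 1 symbol, 1754 with several, 12083 unlisted), and symbols were updated through Entrez identifiers (19429 matched, RefSeq table of GRCh38.p14).

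Differences are MKL1/2 shRNA minus control, tested with limma 3.58.1 in R 4.3.3 (two-sided, by lmFit and eBayes with a term for group, 2 residual and 4.12 prior degrees of freedom) with Benjamini-Hochberg adjustment over 18417 genes and a threshold of 0.05. Intervals are limma's, at 95%. The number of arrays limits the precision. The procedure was also run on arrays simulated from limma's own fitted model, with equal spread in both groups. In the measured arrays the SD of the replicate difference across genes was 0.265 for MKL1/2 shRNA and 0.154 for control. The simulation therefore cannot show how the test behaves on the measured arrays. The genes and lists were chosen with earlier results of these data known. The text names all 10 genes, MRTFA, MRTFB and SRF, in each related list the 4 genes of smallest p and any past the threshold, and in marker lists the 4 of highest mean. Alternatives changed the filter on dim genes, normalization, probe choice, variance moderation and threshold, added a replicate block, or left out each array. At most 174 probes had identical values in any 2 arrays.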

Additional observations from a re-analysis of the deposited data

How the results depend on the processing

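The count of 0 of the 10 genes past the threshold was the same under every alternative tried except a threshold of 0.1, where 1 gene (NES) was lower and 0 were higher, beside 0.782% of all genes. Of 129 recomputed differences of the 10 genes, 6 had the other sign, and all 6 came from leaving out an array. Leaving out each array in turn, KRT7 ran from -0.14 to 0.34 and was below 0 without MKL1/2 shRNA replicate 1 (-0.14) or control replicate 1 (-0.086). KRT80 ran from -0.15 to 0.14 and was above 0 without MKL1/2 shRNA replicate 2 (0.14) or control replicate 2 (0.058). SYNM (-0.10 to 0.0088) and KRT19 (-0.0897 to 0.23) changed sign without MKL1/2 shRNA replicate 2, at 0.0088 and -0.0897. NES ran from -0.83 to -0.62, VIM from -0.51 to -0.22, KRT18 from -0.33 to -0.23, LMNB1 from -0.55 to -0.15, LMNA from -0.20 to -0.071 and KRT8 from -0.14 to -0.010. Averaging its single-gene probes gave KRT18 -0.37.

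Over all genes, 17 lower and 15 higher passed. The lower count was 27 without the dimmest 40% of genes and 27 after quantile renormalization. Robust moderation gave 28 lower and 23 higher, and a threshold of 0.1 gave 78 and 66. With all probes tested limma called 0 and 0 (3486 at an unadjusted p under 0.05), and without moderation 0 and 0 (1840). Leaving out each array in turn gave 0 to 442 lower and 0 to 339 higher, with 0 in both directions without control replicate 1 or control replicate 2 (866 and 1219 at an unadjusted p under 0.05). The cause was not tested. Leaving out MKL1/2 shRNA replicate 2 leaves 1 array in that group, so only log2 differences are given. They were -0.63 for DSC2, -0.62 for DSG3, -0.68 for MACF1 and -0.53 for PKP2 among linker genes. With all 4 arrays these genes were at -0.55, -0.53, -0.40 and -0.40. Among other filament genes the differences were -0.68 for INA and 0.71 for KRT23, beside -0.27 and 0.12 with all 4 arrays. Among markers they were -1.65 for SPP1, -1.27 for PROM1, -1.30 for COL1A2 and -0.90 for LUM. Genes here that the rule for named genes does not cover were singled out by their values. COL1A2 passed at a threshold of 0.1 with all 4 arrays, beside 0.782% of all genes. The replicate block gave 38 lower and 55 higher genes and 0 of the 10, with NES at an adjusted p of 0.0833. Nothing in the labels ties equal numbers to a common batch, and the deviations of same-numbered arrays from their group means had a correlation of -0.067 across genes, so no pairing was assumed. No background signal was available, so low values such as those of KRT80 have no known floor.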
